A study of Mus musculus with 12 samples.

Results

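A set of 9 transcription factors that steer T cells between lineages were followed in mouse CD8 T cells with and without the histone methyltransferase Ezh2: Runx3, Runx1, Zbtb7b (ThPOK), Gata3, Bcl6, Rora, Foxp3, Ikzf2 (Helios) and Zbtb16 (PLZF). The members are all probe sets to which the deposited annotation gives 1 of these 9 gene symbols. There were 28 such probe sets of 45037 non-control probe sets, and the 9 genes stand among 20962 genes that have a probe set of their own. A probe set is a group of short probes on the array that reads 1 transcript or a part of it. Rora has 8 of them, Runx1 has 6, Ikzf2 and Zbtb16 have 3 each, Runx3, Bcl6 and Zbtb7b have 2 each, and Gata3 and Foxp3 have 1 each.

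A developing T cell chooses the CD8 or the CD4 fate through factors that oppose each other. In textbook accounts Runx3 keeps Cd4 silent and sets the cytotoxic programme, while Zbtb7b holds the helper fate and Gata3 acts upstream of it and in type 2 helper cells. Foxp3 defines regulatory T cells, in which Ikzf2 is also common, Bcl6 the follicular helper cells and memory-like cells, Rora the interleukin-17 cells and innate lymphoid cells, and Zbtb16 the innate-like natural killer T cells. Ezh2 is the catalytic subunit of Polycomb repressive complex 2 and places the repressive methyl mark on lysine 27 of histone H3, a mark that often lies over lineage regulators in cells that do not use them.

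Gene expression was measured on 12 arrays from 6 male C57BL/6 mice aged 4 weeks. The KO mice (mice 4 to 6) carried floxed Ezh2 alleles (Ezh2-fl/fl) and a Cre recombinase under a CD4 promoter, so that deletion starts in thymic T cell precursors, and the WT mice (mice 1 to 3) had wild-type genes. The 4 groups of 3 arrays are activated KO, activated WT, naive KO and naive WT CD8 T cells. All cells were taken from spleen and lymph nodes with anti-CD8 magnetic beads at a purity above 93%, which leaves room for other cells. Naive cells were used fresh, as the submitters name them, with no sort for a naive surface phenotype stated. Activated cells were cultured for 3 days on plate-bound anti-CD3 and a costimulatory antibody, given as anti-CD28 in the series description and as anti-CD38 in the sample characteristics. No array of cells cultured without stimulation was among those used, so stimulation and culture cannot be told apart. Values are base-2 logarithms (log2) on the authors' scale, where the median probe set had a mean of 0.942 and the highest value was 10.595. In bulk samples, fewer cells of a type and less RNA per cell cannot be told apart.

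The targeted gene went the way of the labels in activated cells. Ezh2 read 2.72, 3.59 and 3.78 in activated KO cells, against 5.56, 5.26 and 5.35 in activated WT cells. In naive cells it read 1.95, 2.14 and 2.18 in KO and 2.31, 2.16 and 2.42 in WT, a difference of -0.20 ± 0.20 (SE, limma, adjusted p = 0.845), and whether the probes lie in the deleted exons is not known here. All 7 CD8 T cell markers checked (Cd3d, Cd3e, Cd3g, Cd8a, Cd8b1, Cd5 and Lck) had means above the median probe set. On the linear scale they summed to 362 to 418 in activated KO and 476 to 487 in activated WT cells. In naive cells the sums were 743 to 827 in KO and 711 to 750 in WT. Of the 7, 4 were lower in activated KO than in activated WT cells, beside 1.32% of all genes in either direction. Markers of other cells were present and moved with the groups. On the linear scale, the 11 B cell markers summed to 29.2 to 33.3 in activated KO, 30.1 to 31.0 in activated WT, 96.2 to 136 in naive KO and 272 to 291 in naive WT cells, and 3 of the 11 had means below the median probe set. The 8 myeloid markers summed to 13.9 to 16.6 in activated KO, 14.8 to 15.2 in activated WT, 16.8 to 17.3 in naive KO and 21.5 to 25.9 in naive WT cells, with 4 of the 8 below the median. The sum of the 5 dendritic cell markers ran the other way, at 52.9 to 73.9 in activated KO and 70.6 to 74.7 in activated WT cells. It was 13.6 to 16.6 in naive KO and 21.6 to 24.0 in naive WT cells. Of these 5, 1 rose and 2 fell on activation in KO cells, and 1 rose and 1 fell in WT cells. With every probe set tested, Irf8 rose on 2 of its 2 probe sets in each genotype and Zbtb46 on 1 of 4. Siglech fell on its 1 probe set in each genotype, so the rise of the sum was not shared by all 5 markers. Cd4 alone, of helper T cells, gave 2.6 to 2.9 in activated KO, 2.44 to 2.56 in activated WT, 2.8 to 3.65 in naive KO and 3.31 to 4.41 in naive WT cells. The 3 plasma cell markers summed to 23.2 to 27.0 in activated KO and 30.5 to 33.5 in activated WT cells. Their sums in naive cells were 42.9 to 47.9 in KO and 64.3 to 72.9 in WT. Over both genotypes, the 5 measured NK cell markers summed to 8.79 to 9.57 in activated and 16.3 to 34.5 in naive cells.

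RefSeq start-site windows (build GRCm38.p6, 250 bases before and 50 bases after a start) were at hand for 7 of the 9 members, in 12 entries. Runx1 and Bcl6 are shown because probe sets of theirs changed on activation, as described below. Runx3, for which no contrast passed, is shown for comparison with Runx1. Runx1 and Runx3 each have a distal and a proximal start. Capitals in the Runx sequences mark the Runx core TGTGGT or its reverse complement ACCACA, and the coordinates are chr16:92826025-92826324 (minus strand) and chr16:92697280-92697579 (minus strand) for Runx1 and chr4:135120395-135120694 (plus strand) and chr4:135152295-135152594 (plus strand) for Runx3.
Runx1 distal: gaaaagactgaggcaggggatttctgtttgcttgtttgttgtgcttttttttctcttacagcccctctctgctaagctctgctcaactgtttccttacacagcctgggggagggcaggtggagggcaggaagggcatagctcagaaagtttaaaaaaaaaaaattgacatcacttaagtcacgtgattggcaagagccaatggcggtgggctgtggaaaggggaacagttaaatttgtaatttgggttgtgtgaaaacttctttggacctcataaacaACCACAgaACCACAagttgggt
Runx1 proximal: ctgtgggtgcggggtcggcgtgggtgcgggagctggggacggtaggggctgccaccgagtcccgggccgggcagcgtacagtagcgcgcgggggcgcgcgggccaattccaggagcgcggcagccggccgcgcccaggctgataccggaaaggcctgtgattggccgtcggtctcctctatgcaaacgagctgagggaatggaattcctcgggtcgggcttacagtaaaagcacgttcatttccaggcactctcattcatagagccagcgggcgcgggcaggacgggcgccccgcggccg
Runx3 distal: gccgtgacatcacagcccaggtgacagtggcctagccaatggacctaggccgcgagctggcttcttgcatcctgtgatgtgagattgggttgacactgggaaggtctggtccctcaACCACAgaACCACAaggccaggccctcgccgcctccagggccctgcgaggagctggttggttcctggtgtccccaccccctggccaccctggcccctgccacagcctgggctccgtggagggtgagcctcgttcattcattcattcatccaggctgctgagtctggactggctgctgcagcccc
Runx3 proximal: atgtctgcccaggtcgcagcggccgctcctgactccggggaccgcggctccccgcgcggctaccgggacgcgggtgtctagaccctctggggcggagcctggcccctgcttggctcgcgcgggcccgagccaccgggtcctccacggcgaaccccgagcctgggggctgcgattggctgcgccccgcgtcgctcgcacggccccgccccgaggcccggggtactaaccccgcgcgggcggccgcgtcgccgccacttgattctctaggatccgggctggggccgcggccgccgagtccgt

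Both distal windows hold the same run of letters, ACCACAgaACCACA, in which a pair of Runx cores stands 2 bases apart. Its first base lies 29 bases into the transcript in Runx1 and 134 bases before the start in Runx3. Searched on both strands, TGTGGT was found in 16.8% of the 32851 RefSeq windows of the same length, and the pair ACCACANNACCACA in 7 of them, those of Runx1, Runx2 and Runx3 among them. Both proximal windows have no such core and are rich in CpG: 35 CpG in Runx1 and 45 in Runx3, against 2 and 8 in the distal ones and a median of 7 over all windows. A match of letters is a description of the window, not of binding. The files do not say which start a probe set's transcripts come from, so no value below is assigned to a promoter.

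Bcl6 has an upstream start at chr16:23988803-23989102 and a downstream one at chr16:23981234-23981533, both on the minus strand. Capitals mark TTCNNNGAA, the palindrome that STAT factors and Bcl6 itself can bind, read on both strands and found in 8.3% of all windows.
Bcl6 upstream: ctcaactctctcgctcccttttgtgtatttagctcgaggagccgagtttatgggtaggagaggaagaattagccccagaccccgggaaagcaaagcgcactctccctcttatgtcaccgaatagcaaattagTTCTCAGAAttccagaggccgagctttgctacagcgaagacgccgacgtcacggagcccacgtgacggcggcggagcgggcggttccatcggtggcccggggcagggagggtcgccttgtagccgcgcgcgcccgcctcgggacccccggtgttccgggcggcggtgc
Bcl6 downstream: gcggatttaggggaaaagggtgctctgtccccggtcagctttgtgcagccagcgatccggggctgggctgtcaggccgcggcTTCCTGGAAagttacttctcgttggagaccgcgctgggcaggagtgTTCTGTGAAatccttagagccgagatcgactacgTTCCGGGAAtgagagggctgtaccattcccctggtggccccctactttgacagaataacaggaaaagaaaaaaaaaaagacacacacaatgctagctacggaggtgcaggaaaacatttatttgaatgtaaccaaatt
The upstream window holds 1 such palindrome and 31 CpG, and the downstream window holds 3 palindromes and 14 CpG.

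Across the members, the deposited values gave 1 bright gene and 8 dim ones. The 2 probe sets of Runx3 read 3.26 to 4.29 over all 12 arrays, while the other 26 probe sets stayed between 0.27 and 2.26. Of the 28 probe sets, 14 had a mean above the median probe set, and for Zbtb16 none of its 3 did. Brightness depends on the probes as well as on the transcript, so these readings place each probe set on the scale and do not rank the genes by amount. The annotation notes possible cross-hybridization for 10 of the 28.

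**Figure D1:**
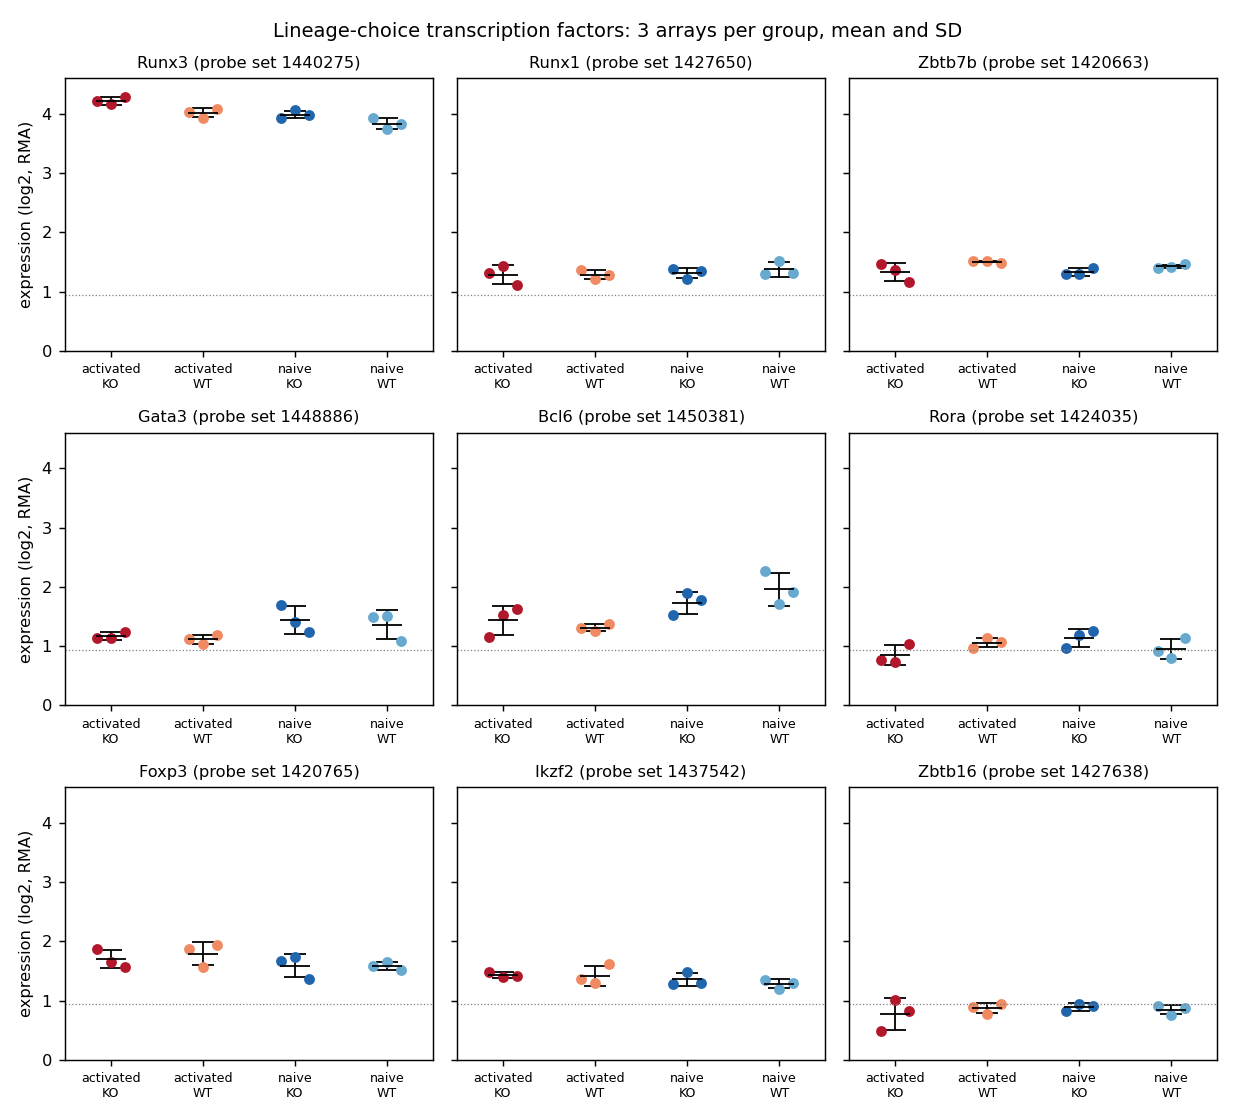
Expression (log2, y axis) of each factor on the probe set with the highest mean, by group on the x axis, with 3 arrays per group as points, the mean as a bar and the SD as whiskers; the dotted line is the median probe set. Runx3 lies between 3.74 and 4.29 on every array, and the other factors lie at or below 2.26.

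With 1 probe set per gene, only Bcl6 in WT cells changed on activation. Among the 9 members, 0 passed in KO cells, against 26.7% of all genes, and 1 passed in WT cells, against 26.8% of all genes (limma, 12 arrays, adjusted p under 0.05 over all genes). At an unadjusted p under 0.05, 3 members stood out in KO cells and 2 in WT cells. The median change of the members was -0.03 in KO and 0.08 in WT cells, beside -0.02 in KO and -0.03 in WT cells over all genes. Between KO and WT, 0 members passed in activated cells, against 1.32% of all genes, and 0 in naive cells, against 1.09%. An unadjusted p under 0.05 was met by 1 member in activated and by 0 in naive cells. The activation response differed between genotypes for 0 members, against 0.868% of all genes, with 1 member at an unadjusted p under 0.05. The 95% intervals of the genotype differences reached at most a 1.37-fold change in activated cells and a 1.45-fold change in naive cells for any member on its brightest probe set, so larger differences in these readings lie outside them. The same genes have several probe sets, and those do not all tell the same story.

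**Figure D2:**
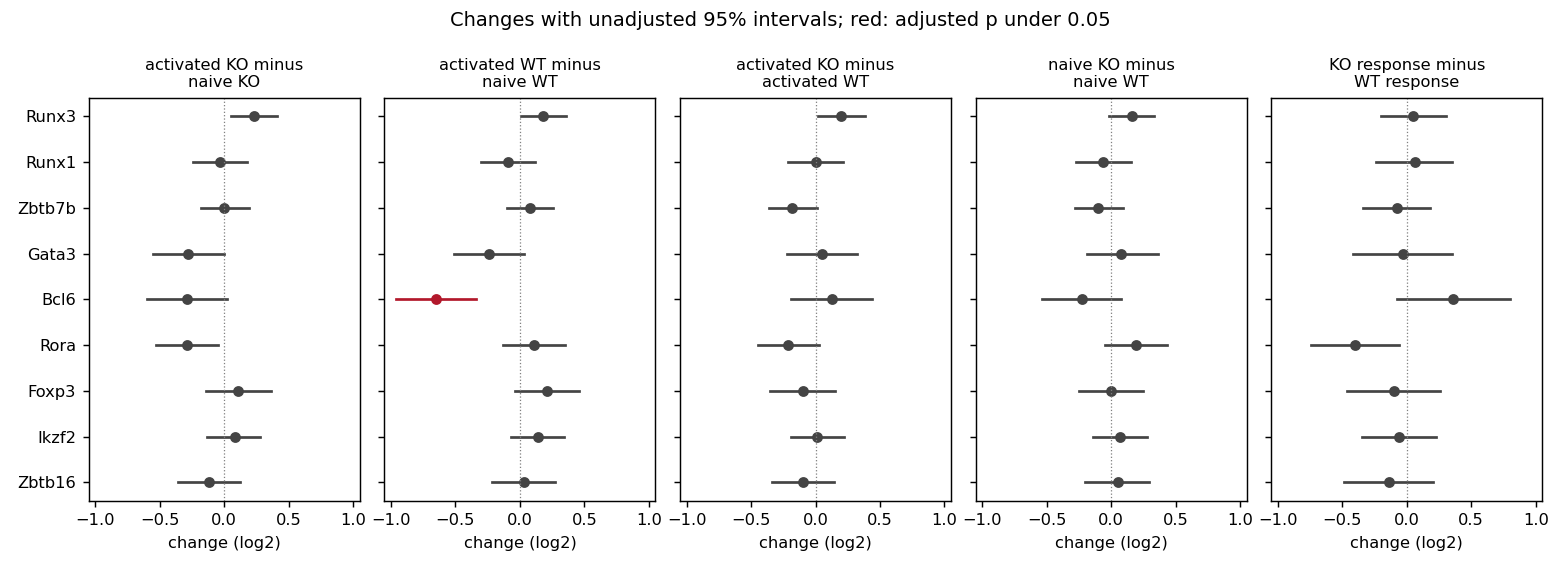
Change (log2, x axis) of the 9 factors (y axis) in the 5 contrasts, with unadjusted 95% intervals, red where the adjusted p is under 0.05. Bcl6 in activated minus naive WT cells, at -0.65, is the only red point, and every genotype interval stays within -0.54 and 0.44.

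Runx3, the factor that keeps Cd4 silent in the CD8 lineage, was bright before and after activation in both genotypes. On its brighter probe set (1440275) it read 4.22, 4.16 and 4.29 in activated KO cells, 4.03, 3.94 and 4.09 in activated WT cells, 3.93, 4.06 and 3.98 in naive KO cells and 3.93, 3.74 and 3.83 in naive WT cells. All 3 activated KO arrays lay above the other 9 arrays, the activated WT arrays lay above the naive WT arrays, and the activated WT and naive KO arrays overlapped. Activated arrays lay above naive ones without overlap for 16.0% of all probe sets in KO and 17.2% in WT cells. In order of mean level the groups ran activated KO, activated WT, naive KO and naive WT. The change on activation was 0.23 ± 0.08 in KO cells (SE, adjusted p = 0.0527, 95% interval 0.05 to 0.41) and 0.18 ± 0.08 in WT cells (adjusted p = 0.125), so neither passed. The call in KO cells turned on the fit: it passed with the mouse as a random block (replicate block, adjusted p = 0.0478) but not as a fixed block (0.23, adjusted p = 0.0790), and it passed after median centring (0.28, adjusted p = 0.0208), where the WT change passed too (0.24, adjusted p = 0.0458). After quantile normalization the signs turned, to -0.10 in KO (adjusted p = 0.496) and -0.16 in WT cells (adjusted p = 0.193), so no direction is given for Runx3 on activation.

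Between genotypes the KO minus WT difference of Runx3 was 0.20 ± 0.08 in activated cells (SE, adjusted p = 0.395, 95% interval 0.02 to 0.38). In naive cells it was 0.16 ± 0.08 (adjusted p = 0.613, 95% interval -0.02 to 0.33). The activated arrays of the 2 genotypes did not overlap, as happened in the higher direction for 7.06% of all probe sets. The second probe set (1421467), which carries a note of cross-hybridization, read 4.05, 3.62 and 3.61 in activated KO cells and 3.49, 3.69 and 3.36 in activated WT cells, and its naive arrays ran over 3.30 to 4.05 in KO and 3.26 to 3.5 in WT cells. All of its groups overlapped and none of its contrasts passed.

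Runx1, the family member of early progenitors and thymocytes, fell on activation in both genotypes on several probe sets, but not on the probe set that represents it by brightness. When every probe set was tested, 4 of the 6 Runx1 probe sets fell in KO cells and 3 of 6 in WT cells, beside 11.9% of all probe sets that fell in each genotype (24.6% in KO and 24.0% in WT cells changed in either direction). Probe set 1422864 moved most. It read 0.92, 1.08 and 0.82 in activated KO cells, against 1.74, 1.90 and 1.57 in naive KO cells, and 0.84, 0.83 and 0.87 in activated WT cells, against 1.57, 1.43 and 1.70 in naive WT cells. Activated arrays lay below naive arrays without overlap in both genotypes, as they did for 18.7% of all probe sets in KO and 23.1% in WT cells. The change was -0.79 ± 0.10 in KO cells (SE, 1.73-fold lower, adjusted p = 2.05e-05) and -0.72 ± 0.10 in WT cells (1.65-fold lower, adjusted p = 5.84e-05), and this probe set carries a note of cross-hybridization.

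The 3 Runx1 probe sets without that note behaved similarly. Probe set 1422865 read 1.08, 0.99 and 0.92 in activated KO cells, against 1.99, 1.77 and 1.26 in naive KO cells, a fall of 0.68 ± 0.15 (adjusted p = 0.00262), and 0.82, 0.62 and 0.56 in activated WT cells, against 1.12, 1.19 and 1.38 in naive WT cells, a fall of 0.56 ± 0.15 (adjusted p = 0.0101). Probe set 1452531 fell by 0.39 ± 0.10 in KO cells (adjusted p = 0.0115) and by 0.43 ± 0.10 in WT cells (adjusted p = 0.00572). Probe set 1440878 fell by 0.62 ± 0.12 in KO cells (adjusted p = 0.000846), and its change in WT cells was -0.31 ± 0.12 (adjusted p = 0.0700). The KO response minus the WT response of this last probe set was -0.31 ± 0.17 (adjusted p = 0.627), so a difference between genotypes was not shown.

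The remaining pair of Runx1 probe sets, both with the note, did not pass. Probe set 1427650, the one with the highest mean, read 1.32, 1.43 and 1.11 in activated KO cells, against 1.38, 1.21 and 1.35 in naive KO cells, and 1.36, 1.22 and 1.28 in activated WT cells, against 1.29, 1.51 and 1.32 in naive WT cells. All 4 of its groups overlapped. Probe set 1452530 changed by -0.33 ± 0.12 in KO cells (adjusted p = 0.0557) and by -0.14 ± 0.12 in WT cells (adjusted p = 0.459). The falls brought the Runx1 readings to about the level of the median probe set or under it, where a smaller change would be hard to see. The B cell markers fell over the same comparisons, 8 of 11 in KO and 10 of 11 in WT cells, and their part in the Runx1 and Bcl6 changes was not tested.

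**Figure D3:**
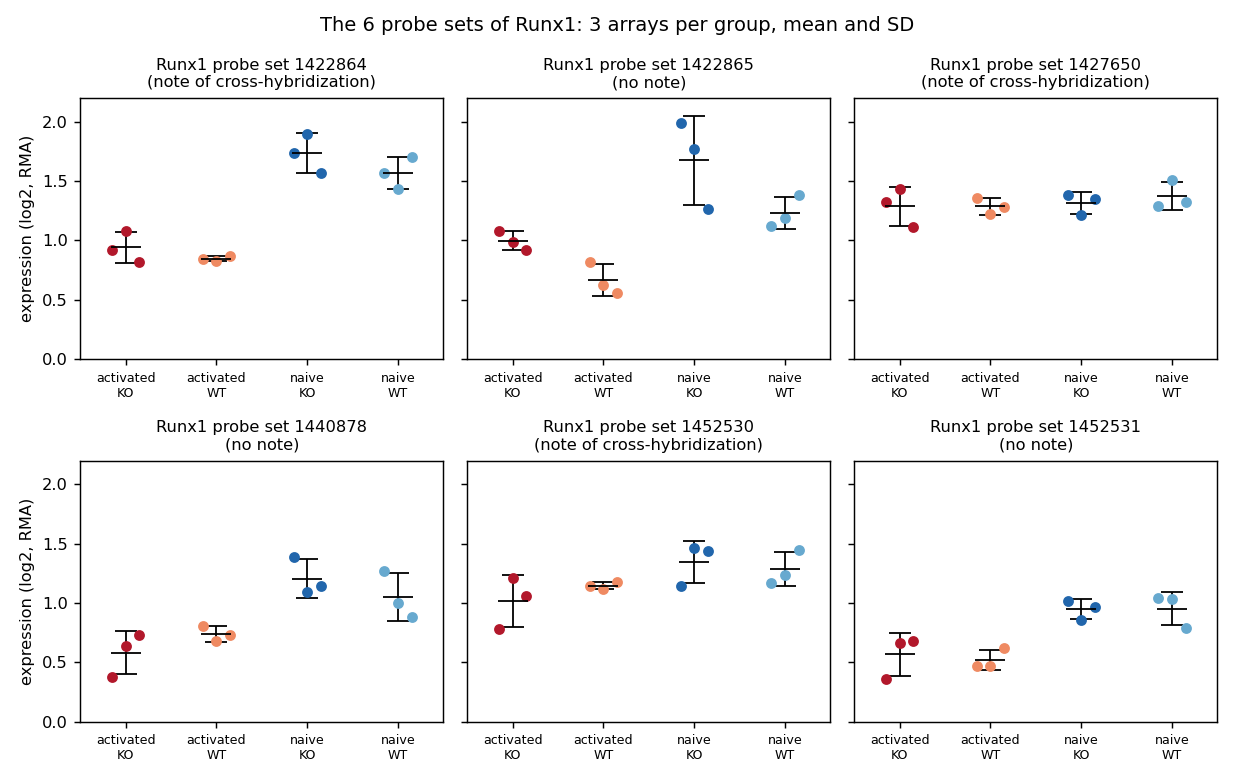
Expression (log2, y axis) on the 6 Runx1 probe sets by group (x axis), with 3 arrays per group as points, the mean as a bar and the SD as whiskers. Probe sets 1422864, 1422865, 1440878 and 1452531 lie lower in activated than in naive cells of both genotypes, while 1427650 overlaps in all 4 groups between 1.11 and 1.51. The change of 1440878 in WT cells did not pass.

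By genotype, the largest Runx1 readings came from probe set 1422865. Its KO minus WT difference was 0.33 ± 0.15 in activated cells (adjusted p = 0.501, 95% interval 0.02 to 0.65), where the arrays did not overlap, and 0.44 ± 0.15 in naive cells (adjusted p = 0.280, 95% interval 0.13 to 0.76), where they did. Activated KO arrays lay above activated WT arrays without overlap for 7.06% of all probe sets. The other 5 probe sets of Runx1 gave differences between -0.16 and 0.17, and none passed. Over the 28 probe sets of all members, 0 passed between genotypes in activated cells, beside 0.939% of all probe sets, 0 in naive cells, beside 0.879%, and 0 for the difference of responses, beside 0.648%.

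Bcl6, a repressor that is high in follicular helper cells and germinal centre B cells, fell on activation in WT cells. On its brighter probe set (1450381) it read 1.3, 1.26 and 1.38 in activated WT cells, against 2.26, 1.71 and 1.91 in naive WT cells. Every activated WT array lay below every naive WT array, as was the case for 23.1% of all probe sets. The change was -0.65 ± 0.15 (SE, 1.57-fold lower, adjusted p = 0.00308). In KO cells it read 1.16, 1.52 and 1.63 after activation, against 1.52, 1.89 and 1.77 in naive cells, which meet at 1.52, and the change of -0.29 ± 0.15 did not pass (adjusted p = 0.175). The KO response minus the WT response was 0.36 ± 0.21 (adjusted p = 0.627, 95% interval -0.08 to 0.80), so the fall was not shown to differ between genotypes. KO minus WT was 0.13 ± 0.15 in activated cells (adjusted p = 0.919) and -0.23 ± 0.15 in naive cells (adjusted p = 0.703). The dimmer probe set (1421818) read 0.70, 0.65 and 0.65 in activated KO, 0.68, 0.41 and 0.43 in activated WT, 0.84, 0.74 and 0.95 in naive KO and 0.68, 1.10 and 1.11 in naive WT cells. With every probe set tested it fell by 0.45 ± 0.11 in WT cells (adjusted p = 0.00828), although 1 activated and 1 naive WT array both read 0.68, and changed by -0.18 ± 0.11 in KO cells (adjusted p = 0.331).

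The genes whose centred profile over the 12 arrays came nearest to that of Bcl6, among 10962 genes brighter than the median, were H2-Ob, Ubn1 and Glul. H2-Ob, which encodes a chain of an antigen-loading regulator of class II molecules known best from B cells, had a root mean square difference of 0.1 on the log2 scale and a Pearson correlation of 0.95, as a description over arrays that share their groups. It changed by -0.36 in KO cells (adjusted p = 0.0312) and by -0.69 in WT cells (adjusted p = 0.000233). Ubn1, a histone chaperone subunit, had a difference of 0.133, and Glul, glutamine synthetase, one of 0.135. The summed B cell markers, given above, were highest in naive WT, then naive KO, and lowest in activated cells of both genotypes. For Bcl6 itself the naive KO and naive WT arrays overlapped, with a difference of -0.23 (limma, adjusted p = 0.703). Whether B cells have a part in the Bcl6 profile was not tested.

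Zbtb7b, the helper-lineage factor ThPOK, read low in all groups, and none of its contrasts passed. Probe set 1420663, with a note of cross-hybridization, read 1.47, 1.36 and 1.17 in activated KO, 1.51, 1.52 and 1.49 in activated WT, 1.3, 1.29 and 1.40 in naive KO and 1.40, 1.42 and 1.46 in naive WT cells. The activated KO arrays lay below the activated WT arrays, as happened in the lower direction for 6.28% of all probe sets, with a difference of -0.18 ± 0.09 (adjusted p = 0.531). The second probe set (1455071) read 1.08 to 1.44 with overlap in every contrast. Its counterpart Gata3, a zinc finger factor of T cell development and type 2 responses, read 1.13, 1.13 and 1.24 in activated KO and 1.12, 1.03 and 1.19 in activated WT cells. In naive cells Gata3 read 1.69, 1.41 and 1.23 in KO and 1.49, 1.51 and 1.08 in WT. Mouse 3 and mouse 6 gave the low naive readings, which overlap with the activated ones, and their 4 arrays are those numbered 9 to 12 in the authors' array names. The change of Gata3 on activation was -0.28 ± 0.13 in KO (adjusted p = 0.138) and -0.24 ± 0.13 in WT cells (adjusted p = 0.191). Without the naive array of mouse 6 the KO change was -0.38 (adjusted p = 0.0482), and without that of mouse 3 the WT change was -0.38 (adjusted p = 0.0333). Within arrays 1 to 8 Gata3 changed by -0.42 in KO and -0.42 in WT cells, and within arrays 9 to 12 by 0.02 in KO and 0.11 in WT cells, where each group has 1 array.

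Rora, a nuclear receptor of interleukin-17 cells, innate lymphoid cells and the circadian clock, has 8 probe sets here, which read 0.38 to 1.25. Only 1 of the 8 had a mean above the median probe set. That one (1424035) read 0.77, 0.73 and 1.04 in activated KO, 0.97, 1.13 and 1.07 in activated WT, 0.97, 1.19 and 1.25 in naive KO and 0.91, 0.80 and 1.13 in naive WT cells. Its groups overlapped on activation in both genotypes, with a change of -0.29 ± 0.11 in KO (adjusted p = 0.0768) and 0.11 ± 0.11 in WT cells (adjusted p = 0.541). The KO change passed with an intensity trend and robust variances together (adjusted p = 0.0489), with the array numbering as a term (0.0332), without the naive array of mouse 4 (0.0345) and without the activated array of mouse 6 (0.02), and its adjusted p reached 0.241 over all alternatives. The KO response minus the WT response of Rora was -0.40 ± 0.16 (adjusted p = 0.405). Another probe set (1455165) fell in WT cells, where it read 0.85, 0.71 and 0.71 after activation, against 1.01, 1.08 and 0.99 in naive cells, by 0.27 ± 0.09 (adjusted p = 0.0386 with every probe set tested). In KO cells that probe set changed by -0.07 ± 0.09 (adjusted p = 0.690). In naive cells 3 of the 8 probe sets read lower in every KO array than in every WT array, beside 7.31% of all probe sets, and none of the 8 passed.

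Foxp3, the regulatory T cell factor, was read by 1 probe set with a note of cross-hybridization. It read 1.87, 1.65 and 1.57 in activated KO, 1.87, 1.57 and 1.94 in activated WT, 1.66, 1.73 and 1.37 in naive KO and 1.58, 1.65 and 1.52 in naive WT cells. All groups overlapped, and the changes were 0.11 ± 0.12 in KO (adjusted p = 0.598) and 0.21 ± 0.12 in WT cells (adjusted p = 0.233). Ikzf2, an Ikaros family factor, read 1.48, 1.39 and 1.42 in activated KO, 1.36, 1.29 and 1.61 in activated WT, 1.28, 1.49 and 1.3 in naive KO and 1.35, 1.20 and 1.3 in naive WT cells on its brightest probe set (1437542), again with overlap. Its dimmest probe set (1456956) fell in WT cells, with 0.59, 0.50 and 0.64 after activation, against 0.89, 1.09 and 0.71 in naive cells, by 0.32 ± 0.11 (adjusted p = 0.0384 with every probe set tested). The KO change there was -0.26 ± 0.11 (adjusted p = 0.105), and activated and naive arrays overlapped in neither genotype. In the lower direction that happened for 18.7% of all probe sets in KO and 23.1% in WT cells. Zbtb16, the innate-like factor PLZF, read 0.27 to 1.09 over its 3 probe sets, and all of its groups overlapped.

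The authors' deposited table holds, per probe set, a ratio of group means and an unadjusted p from an analysis of variance, selected at p under 0.01 and a ratio above 1.3. Of the 28 probe sets, 4 were selected in the authors' deposited table for activation in KO cells, all of Runx1, beside 17.3% of all probe sets, and 4 in WT cells, of Bcl6 and Runx1, beside 16.1%. The authors' deposited table selected 0 of the 28 between genotypes in activated cells, beside 1.47% of all probe sets, 0 in naive cells, beside 1.4%, and 0 for the difference of responses, beside 1.77%. For Runx1 probe set 1422864 the authors' deposited table gives ratios of 0.578 in KO and 0.607 in WT cells.

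Partners and corepressors through which these factors act were read from a list of 16 genes. The background for this and the following lists is the 26.7% of all genes that passed on activation in KO and the 26.8% in WT cells, with a median change of -0.02 in KO and -0.03 in WT cells. The lists were chosen with earlier results of these data known, so these shares are for reference and enrichment was not tested. On activation 3 rose and 7 fell in KO cells, and 3 rose and 6 fell in WT cells, with a median change of -0.11 in KO and -0.19 in WT cells. Cbfb, the subunit that Runx proteins need to bind DNA stably, read 5.08, 5.12 and 5.04 in activated KO, against 4.70, 4.75 and 4.75 in naive KO cells, and 5.13, 4.68 and 4.99 in activated WT, against 4.71, 4.55 and 4.34 in naive WT cells. It rose by 0.35 ± 0.11 in KO (adjusted p = 0.0331) and by 0.40 ± 0.11 in WT cells (adjusted p = 0.0156), but after quantile normalization its change was 0.03 in KO (adjusted p = 0.903) and 0.03 in WT cells (adjusted p = 0.856). Leaving out 1 array ended the Cbfb call in KO cells for any naive KO array or that of activated mouse 4 or 5 (adjusted p up to 0.0912), and in WT cells for naive mouse 3 or activated mouse 1 or 3 (up to 0.0926).

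Tle4, of the Groucho family of corepressors that Runx factors recruit, and its relative Tle5 fell. Tle4 fell by 1.43 ± 0.14 in KO (adjusted p = 8.16e-07) and by 1.17 ± 0.14 in WT cells (adjusted p = 7.50e-06). Tle5, a short relative that acts without the full corepressor domains, read 3.60, 3.59 and 3.5 in activated KO, against 4.87, 5.15 and 5.05 in naive KO cells, and 3.86, 4.08 and 3.79 in activated WT, against 4.70, 4.82 and 4.63 in naive WT cells. It fell by 1.46 ± 0.10 in KO and by 0.81 ± 0.10 in WT cells. Hdac3, a histone deacetylase of nuclear receptor and Bcl6 corepressor complexes, rose by 1.29 ± 0.12 in KO (adjusted p = 9.85e-07) and by 0.57 ± 0.12 in WT cells (adjusted p = 0.00278). Mta3, a chromatin-remodelling partner of Bcl6 in B cells, fell by 0.69 ± 0.10 in KO and by 0.87 ± 0.10 in WT cells. Between genotypes 0 of the 16 passed in activated cells, where 1.32% of all genes did, and 0 in naive cells, where 1.09% did.

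**Figure D4:**
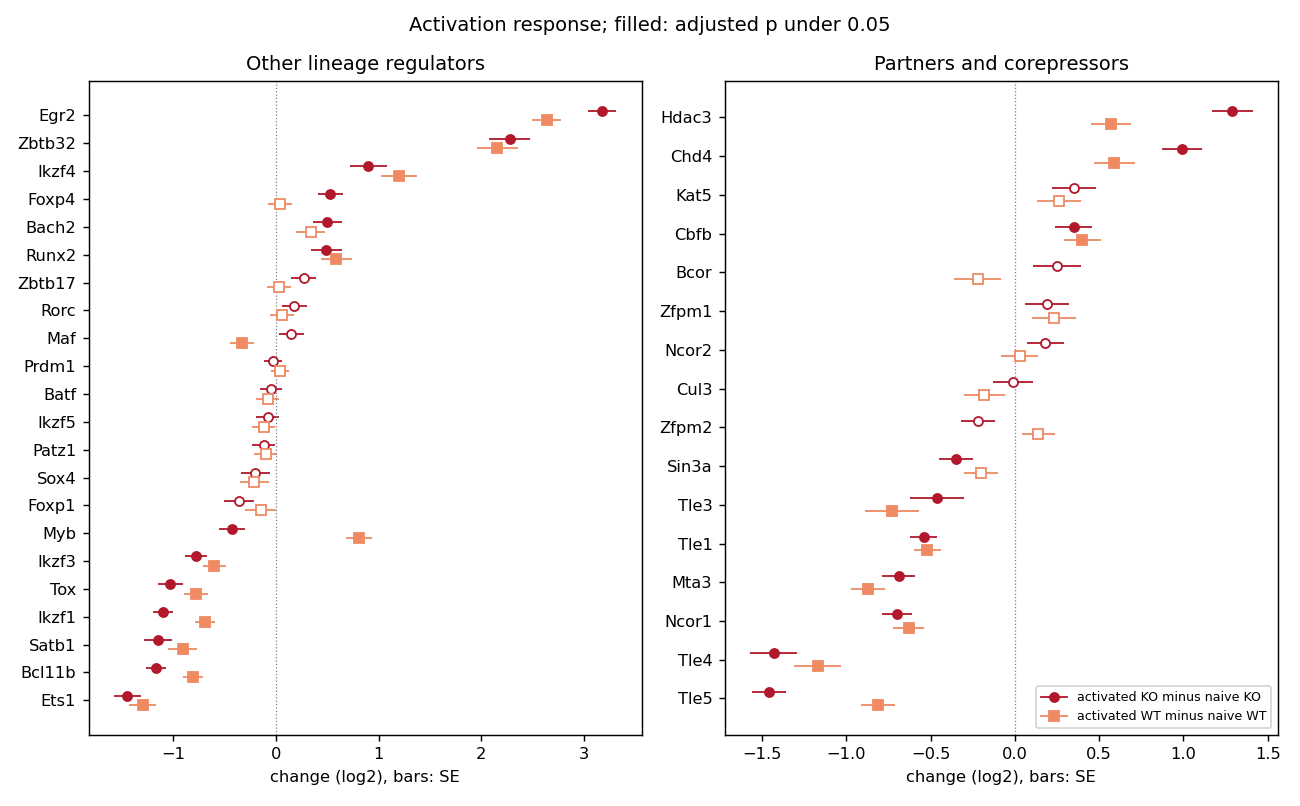
Change on activation (log2, x axis; bars are SE) of other lineage regulators (left) and of partners and corepressors (right), circles for KO and squares for WT cells, filled where the adjusted p is under 0.05. Egr2 lies at 3.18 in KO and 2.64 in WT cells, Ets1 at -1.45 in KO and -1.3 in WT cells, and the markers of Myb lie on opposite sides of 0.

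Other regulators of T cell fate, 22 listed genes, moved in both directions on activation. Of these, 6 rose and 7 fell in KO cells, and 5 rose and 7 fell in WT cells. Egr2, induced by T cell receptor signals, rose by 3.18 ± 0.14 in KO (adjusted p = 1.37e-10) and by 2.64 ± 0.14 in WT cells (adjusted p = 9.67e-10). Zbtb32, a repressor of the same protein family as Zbtb16 and Zbtb7b, rose by 2.28 ± 0.20 in KO and by 2.16 ± 0.20 in WT cells, and Ets1, a factor of naive T cells, fell by 1.45 ± 0.13 in KO and by 1.3 ± 0.13 in WT cells. The relatives of Ikzf2 split by direction. Ikzf1 (Ikaros) fell by 1.10 ± 0.10 in KO and by 0.69 ± 0.10 in WT cells, and Ikzf3 (Aiolos) fell by 0.78 ± 0.11 in KO and by 0.60 ± 0.11 in WT cells. Ikzf4 (Eos) rose by 0.90 ± 0.18 in KO and by 1.20 ± 0.18 in WT cells, and Ikzf5 (Pegasus) passed in neither genotype.

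Runx2, the third member of the Runx family, differed between genotypes where Runx1 and Runx3 did not pass. It read 2.95, 3.14 and 3.44 in activated KO cells, against 2.56, 2.49 and 2.33 in activated WT cells, and 2.66, 2.69 and 2.71 in naive KO cells, against 1.81, 1.56 and 2.23 in naive WT cells. Every KO array lay above every WT array of the same state. In activated cells that happened for 7.06% of all probe sets, and the share in naive cells was not computed. The difference was 0.72 ± 0.15 in activated cells (adjusted p = 0.0255) and 0.82 ± 0.15 in naive cells (adjusted p = 0.0112). Leaving out any activated WT array or that of activated KO mouse 5 or 6 ended the activated call (adjusted p up to 0.131), and leaving out naive WT mouse 1 or 2 ended the naive one (up to 0.0637). After quantile normalization the activated difference was 0.64 (adjusted p = 0.0633), and on the Runx2 probe set of largest variance the naive difference was 0.29 (adjusted p = 0.234), so neither call held in all settings. On activation Runx2 rose by 0.49 ± 0.15 in KO (adjusted p = 0.0212) and by 0.59 ± 0.15 in WT cells (adjusted p = 0.00700). The KO call was lost without naive mouse 4 or 5 or activated mouse 6 (adjusted p up to 0.1) and after quantile normalization (0.29, adjusted p = 0.207). With every probe set tested, 3 of its 3 probe sets were higher in activated KO and 1 of 3 in naive KO cells. Whether Runx2 differed between genotypes more than Runx1 or Runx3 was not tested.

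Myb, a factor of thymocytes and of stem-like CD8 cells, gave the largest genotype difference of the 22 in naive cells. It read 4.72, 4.76 and 4.70 in naive KO cells, against 3.12, 3.02 and 2.94 in naive WT cells, a difference of 1.70 ± 0.13 (adjusted p = 1.85e-06). In activated cells it read 4.07, 4.44 and 4.37 in KO and 4.00, 3.53 and 3.99 in WT (adjusted p = 0.118). On activation Myb fell by 0.43 ± 0.13 in KO cells (adjusted p = 0.0177) and rose by 0.81 ± 0.13 in WT cells (adjusted p = 0.000127). The KO fall did not pass without naive mouse 5 (adjusted p = 0.0549) or activated mouse 4 (adjusted p = 0.0896), nor on the Myb probe set of largest variance (-0.32, adjusted p = 0.284).

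Genes that belong to the fates named by these factors were counted from lists. These lists too were chosen with earlier results known, so a count beside a share of all genes is not a test of enrichment. Of 13 helper and type 2 genes, 1 rose in each genotype, Ccr4, a chemokine receptor of type 2 helper and regulatory cells, by 1.25 ± 0.14 in KO and by 1.18 ± 0.14 in WT cells. The 1 that fell in WT cells was Cd4, by 0.55 ± 0.12 (adjusted p = 0.00289). None of the 13 passed between genotypes in activated cells, beside 1.32% of all genes, or in naive cells, beside 1.09%. Of 11 CD8 lineage genes, 6 rose and 4 fell in KO cells and 6 rose and 3 fell in WT cells, and 4 were higher and 2 lower in activated KO than in activated WT cells, beside 1.32% of all genes that passed in either direction. The 4 higher genes were Prf1, the pore former perforin (1.12 ± 0.18, adjusted p = 0.00465), Eomes, a factor of cytotoxic and memory cells (1.01 ± 0.18, adjusted p = 0.00892), Ccl5, a chemokine (0.68 ± 0.10, adjusted p = 0.00334), and Crtam, an adhesion receptor (0.60 ± 0.12, adjusted p = 0.0187). The 2 lower genes were the coreceptor chains Cd8b1 (-0.54 ± 0.10, adjusted p = 0.0132) and Cd8a. Cd8a, the coreceptor chain that Runx factors help to express, read 6.87, 6.83 and 6.71 in activated KO, against 7.24, 7.30 and 7.21 in activated WT cells. That difference of -0.45 ± 0.09 (adjusted p = 0.0229) ended without any 1 of the activated WT arrays or activated KO mouse 5 or 6 (adjusted p up to 0.104), and on the Cd8a probe set of largest variance it was -0.11 (adjusted p = 0.839). With every probe set tested, only 1 of the 5 Cd8a probe sets was lower in activated KO than in activated WT cells. With the activated arrays compared alone the adjusted p was 0.0526 for Cd8a and 0.0782 for Cd8b1, and the Cd8b1 call also ended without activated WT mouse 1 or 3 (up to 0.0614). The Crtam call in activated cells ended without activated WT mouse 1 or 2 or activated KO mouse 4 (up to 0.101).

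In naive cells 2 of the 11 CD8 lineage genes were higher and 3 lower in KO than in WT, beside 1.09% of all genes. Eomes was higher by 2.63 ± 0.18 (adjusted p = 5.83e-07) and Crtam by 0.62 ± 0.12 (adjusted p = 0.0161), a Crtam call that ended without naive KO mouse 4 or 6 or naive WT mouse 1 and with the naive arrays compared alone (up to 0.0945). The KO minus WT difference was -2.66 ± 0.22 for Itgae, the integrin chain CD103 (adjusted p = 6.84e-06), -0.99 ± 0.10 for Ccl5 (adjusted p = 9.68e-05) and -0.71 ± 0.12 for Gzmb, granzyme B (adjusted p = 0.00638). The size of the Itgae difference depended on the setting: it passed in all 21 alternatives run but ranged from -2.87 to -0.99. Ccl5 thus read higher in activated KO and lower in naive KO cells, each against WT cells of the same state.

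Of 10 measured regulatory T cell genes, 6 rose and 1 fell in KO cells and 7 rose and none fell in WT cells, with a median change of 0.85 in KO and 1.02 in WT cells, beside -0.02 in KO and -0.03 in WT cells over all genes, while Foxp3 itself did not pass. In activated cells 3 of the 10 were lower and 1 higher in KO than in WT, beside 1.32% of all genes. Ctla4, an inhibitory receptor, read 3.08, 2.76 and 2.78 in activated KO, against 3.93, 3.65 and 3.92 in activated WT cells, a difference of -0.96 ± 0.12 (adjusted p = 0.000462). The KO minus WT difference in activated cells was -0.72 ± 0.16 for Izumo1r, folate receptor 4 (adjusted p = 0.0349), -0.55 ± 0.12 for Tnfrsf18, the costimulatory receptor GITR (adjusted p = 0.0454), and 0.61 ± 0.12 for Nrp1, neuropilin 1 (adjusted p = 0.0187). The calls of these last genes depended on single arrays and, for Tnfrsf18 and Nrp1, on the setting. Izumo1r did not pass without any 1 of the activated WT arrays, activated KO mouse 4 or 6, naive KO mouse 5 or naive WT mouse 1 (adjusted p up to 0.132). Tnfrsf18 did not pass without any 1 of the 6 WT arrays, activated KO mouse 5 or 6 or naive KO mouse 6 (up to 0.159), and Nrp1 without activated WT mouse 2 or 3 (up to 0.0907). Tnfrsf18 also did not pass with the activated arrays compared alone (adjusted p = 0.0991), after quantile normalization (0.0658), with the array numbering as a term (0.0543) or with robust variances and an intensity trend (0.0502), and Nrp1 not with the activated arrays alone (0.0931) or on its probe set of largest variance (0.53, adjusted p = 0.07). In naive cells the KO minus WT difference of Ctla4 was -0.54 ± 0.12 (adjusted p = 0.0432), and it did not pass without any 1 of the 6 naive arrays, activated WT mouse 1 or 3 or activated KO mouse 5 (up to 0.187), with the naive arrays alone (0.0595) or with robust variances and an intensity trend (0.0656).

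Of 13 follicular helper genes, 3 rose and 7 fell in KO cells and 3 rose and 5 fell in WT cells. Il6ra, the receptor chain of interleukin-6, which can induce Bcl6, fell by 2.86 ± 0.17 in KO and by 3.14 ± 0.17 in WT cells, and Cd200, a surface glycoprotein, rose by 4.05 ± 0.18 in KO and by 3.01 ± 0.18 in WT cells. Of 10 innate-like T cell genes, 1 rose and 4 fell in KO cells and 3 rose and 5 fell in WT cells, with Slamf1, a signalling receptor of natural killer T cell development, up by 2.42 ± 0.16 in KO and by 2.65 ± 0.16 in WT cells. Of 11 measured interleukin-17 and clock genes, 1 rose and 1 fell in each genotype. Cry1, a clock repressor, rose by 0.84 ± 0.11 in KO and by 0.61 ± 0.11 in WT cells, and Nr1d2 (REV-ERB beta), which competes with Rora for the same DNA elements, fell by 1.39 ± 0.10 in KO and by 0.60 ± 0.10 in WT cells.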

How the data were processed

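RNA of 12 samples (about 200 ng each) was amplified with a small-sample kit, Nugen's Ovation Pico WTA V2, and read on an Affymetrix mouse array with perfect-match probes, per the labels' protocols. The authors' deposited values are log2 expression from RMA without mismatch probes, per the file headers, and no version of RMA was found in the labels or headers. The authors' deposited ratio and p-value columns were used only where named. The 2 deposited tables differed by at most 5.0e-09. Array medians were 0.905 to 0.976. With 3 arrays per group, their number sets the precision. Detection calls were not used.

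Of 45141 probe sets, 104 controls were left out. Symbols come from the deposited annotation, and 18394 were updated through RefSeq. Each of 20962 genes was represented by its probe set with the highest mean. Limma 3.58.1 in R 4.3.3 fitted 1 mean per group with empirical Bayes variances over all 12 arrays, with Benjamini-Hochberg adjustment over all genes, two-sided, at 0.05; the same fit was run on all 45037 non-control probe sets. The fit was tested on simulated data. Each mouse gave 1 naive and 1 activated sample, so samples are paired by animal; deviations of the pairs correlated between -0.10 and 0.13 and the consensus block correlation was 0.033.

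The members and gene lists were chosen with earlier results of these data known. Named genes are the members; from each list and contrast up to 3 passing genes with the largest change, or all where 5 or fewer passed; and the 3 genes nearest in profile to a passing member; the text describes some of those on the lists, not all. Cbfb, Ikzf1, Ikzf3 and Ikzf4 were added as partner or relatives after their values were seen. Alternatives changed the probe set, scaling, filter, variance model, block and arrays used.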

Additional observations from a re-analysis of the deposited data

Results flagged for a closer look

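Among the genes named beside the members, 12 had an activation response that differed between genotypes in limma's test of that difference (KO response minus WT response, log2). Genes were named in part because they passed this or another contrast. Their count therefore cannot be compared with the 0.868% of all genes that passed. The targeted gene Ezh2 gave -1.82 (adjusted p = 0.00371). Of the CD8 lineage genes, Itgae gave 2.43 (adjusted p = 0.000865), Ccl5 1.67 (adjusted p = 3e-05), Eomes -1.62 (adjusted p = 0.00381) and Gzmb 1.04 (adjusted p = 0.00524). Lck, the kinase bound to the Cd4 and Cd8 coreceptors, gave -0.93 (adjusted p = 0.00524). Myb gave -1.25 (adjusted p = 0.00201). Icos, a costimulatory receptor of follicular helper cells, gave -0.90 (adjusted p = 0.0171), and Sh2d1a, the SAP adaptor that those cells need, gave -0.82 (adjusted p = 0.0390). Nr1d2 gave -0.79 (adjusted p = 0.0154), Cd8a -0.67 (adjusted p = 0.0216) and Tle5 -0.65 (adjusted p = 0.0388). Ezh2, Itgae, Ccl5, Eomes, Gzmb, Lck and Myb passed without each of the 12 arrays in turn. The others did not pass without 1 or more arrays, left out singly: Nr1d2 without activated WT mouse 2 (adjusted p = 0.0514), Icos without activated WT mouse 1 or 3, naive KO mouse 5 or naive WT mouse 3 (up to 0.0584), and Cd8a without activated WT mouse 1 or 2, naive KO mouse 5 or 6 or naive WT mouse 2 or 3 (up to 0.0657). Tle5 did not pass without any 1 of the activated KO arrays, activated WT mouse 1 or 2, naive KO mouse 5 or 6 or naive WT mouse 1 or 3 (up to 0.108), and Sh2d1a without any 1 of the 6 WT arrays or mouse 5 or 6 of either KO group (up to 0.108). On the probe set of largest variance the difference was -0.22 for Cd8a (adjusted p = 0.626) and -0.54 for Lck (adjusted p = 0.408), and without marked probe sets it was -0.17 for Lck (adjusted p = 0.842), -0.52 for Nr1d2 (adjusted p = 0.304) and 0.83 for Itgae (adjusted p = 0.0637). With every probe set tested, the difference of responses passed on only 1 of the 5 Cd8a probe sets. Sh2d1a also did not pass with an intensity trend and robust variances (adjusted p = 0.0525) or with the array numbering as a term (0.0503), nor Tle5 with the trend (0.095). None of the 9 members passed this test. No explanation of these differences was tested.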

How the results depend on the processing

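The fall of Bcl6 in WT cells passed in all 22 alternatives run (change -0.78 to -0.50, adjusted p 0.000903 to 0.0204), and no member passed in a genotype contrast or in the difference of responses under any alternative run. In KO cells the count of members that passed on activation, 0, became 1 with the probe set of largest variance, without probe sets marked for cross-hybridization and with every probe set tested (Runx1 each time), with median centring and the replicate block (Runx3), and with an intensity trend with robust variances and the array numbering as a term, an alternative chosen after seeing the data (Rora); without single arrays it ranged from 0 to 1. In WT cells the count, 1, became 2 with the probe set of largest variance and without marked probe sets (Runx1 added) and with median centring (Runx3 added), and 4 with every probe set tested; without single arrays it ranged from 1 to 2. The array numbering term passed for 0 of 20962 genes, Gata3 gave -0.42 in each genotype within arrays 1 to 8 and 0.02 (KO) and 0.11 (WT) within arrays 9 to 12, and Bcl6 in WT cells changed by -0.71 among arrays 1 to 8 and by -0.54 among arrays 9 to 12. The samples are paired by mouse, and the replicate block moved the Runx3 call in KO cells (adjusted p = 0.0478) and no other member's call; among other named genes it ended that of Icos between genotypes in activated cells (adjusted p = 0.0508), and the mouse as a fixed term ended those of Cd8a (adjusted p = 0.0749) and Sh2d1a (-0.82, adjusted p = 0.0923) between responses and brought that of Izumo1r under the threshold (-0.80, adjusted p = 0.0458). Of the other named genes, Icos in KO cells turned from 0.03 to -0.57 with the probe set of largest variance and to -0.31 with quantile normalization, and the Runx2 difference of responses from -0.10 to 0.63 with the probe set of largest variance; the cause was not tested. Over all genes, the passing counts of 5595 and 5612 (activation in KO and WT), 277 and 228 (genotype in activated and naive cells) and 182 (responses) became 3088, 3047, 161, 127 and 94 without marked probe sets, where fewer genes are tested, and 11065, 10793, 423, 396 and 292 with every probe set. With the activated arrays alone 153 passed between genotypes. Without activated WT mouse 1, 2 or 3 it was 182, 147 or 150, and without naive WT mouse 1 or 3 the naive count was 139 or 148. Of the calls in WT cells 55.4% were higher, 66.4% with median centring and 44.9% without marked probe sets.
Limits are the 3 arrays per group, the dim readings of all members but Runx3, where changes near the bottom of the scale are compressed, and probe sets of 1 gene that disagree.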
